A study of Mus musculus with 4 samples.

Results

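The transcripts followed here belong to skeletal muscle: 36 genes that commit cells to the muscle lineage, build the sarcomere, or form the membranes and receptors of the muscle fibre. They were chosen by name, with earlier results of these data known. All 36 were found among the 18193 genes named on the array, through 61 probe sets. A probe set is a group of short oligonucleotides that reads 1 transcript. RNA came from whole skin of mouse embryos at E14.5, dissected as epidermis together with dermis according to the labels. The scanner records name epidermis. Each of the 4 Affymetrix mouse arrays held 1 sample, 2 from control littermates, whose genotype is not given in the labels, and 2 from KRT14-Cre Ctnnb1(Ex3)fl/+ mutants. In these mutants Cre removes an exon of 1 Ctnnb1 allele that encodes the degradation signals of beta-catenin, the effector of Wnt signalling, and the other Ctnnb1 allele is left as it was. The KRT14 promoter is active in keratinocytes, so recombination was directed to the epithelium and not to muscle.

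Muscle of the trunk and limbs descends from somite cells that carry the transcription factors Pax3 and Pax7. Myf5 and Myod1 commit such cells to become myoblasts, Myog drives their differentiation into multinucleated fibres, and Mef2c acts with these factors on muscle promoters. Young fibres use embryonic and slow forms of myosin, troponin and actin before the adult fast forms take over. Mouse skin holds a muscle of its own, the panniculus carnosus, a thin striated sheet beneath the dermis, and body wall muscle lies directly under it.

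Muscle promoters are known to carry E-boxes, which bind the Myod1 family of factors, and sites for Mef2 proteins. The promoters of 4 members are shown as examples of genes that differ in the values given further on, not of a difference in promoters. Myh8 and Casq2, a myosin and a calcium store protein, passed the test as lower in mutant skin. Myog and Chrna1, a myogenic factor and a receptor subunit, had overlapping groups. Sequences are from RefSeq (GRCm38.p6), read 5' to 3' on the strand of the gene. They run from 250 bases before to 50 bases after the gene's start, with E-boxes (CANNTG) and Mef2 motifs in capitals. A Mef2 motif was a match to YTAWWWWTAR, where Y is C or T, W is A or T and R is A or G. Myh8 lies at chr11:67276874-67277173 on the plus strand, Casq2 at chr3:102086165-102086464 on the plus strand, Myog at chr1:134289754-134290053 on the plus strand and Chrna1 at chr2:73580289-73580588 on the minus strand.
Myh8: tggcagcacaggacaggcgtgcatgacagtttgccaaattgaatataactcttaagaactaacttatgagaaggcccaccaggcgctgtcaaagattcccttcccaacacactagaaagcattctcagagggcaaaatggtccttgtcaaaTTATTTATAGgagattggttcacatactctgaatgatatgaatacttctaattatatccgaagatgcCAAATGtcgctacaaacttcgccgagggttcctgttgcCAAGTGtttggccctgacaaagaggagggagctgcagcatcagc
Casq2: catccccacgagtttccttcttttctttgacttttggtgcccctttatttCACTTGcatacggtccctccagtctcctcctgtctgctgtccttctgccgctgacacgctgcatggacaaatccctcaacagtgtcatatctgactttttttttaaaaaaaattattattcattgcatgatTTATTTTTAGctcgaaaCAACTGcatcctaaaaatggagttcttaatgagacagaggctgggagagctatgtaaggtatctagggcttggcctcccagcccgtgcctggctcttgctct
Myog: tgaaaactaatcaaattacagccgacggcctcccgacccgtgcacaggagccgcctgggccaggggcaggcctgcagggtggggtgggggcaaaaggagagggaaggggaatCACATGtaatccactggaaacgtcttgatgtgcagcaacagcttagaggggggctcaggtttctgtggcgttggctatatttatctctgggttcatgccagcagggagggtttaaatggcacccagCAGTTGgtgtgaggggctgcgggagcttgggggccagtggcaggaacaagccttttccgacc
Chrna1: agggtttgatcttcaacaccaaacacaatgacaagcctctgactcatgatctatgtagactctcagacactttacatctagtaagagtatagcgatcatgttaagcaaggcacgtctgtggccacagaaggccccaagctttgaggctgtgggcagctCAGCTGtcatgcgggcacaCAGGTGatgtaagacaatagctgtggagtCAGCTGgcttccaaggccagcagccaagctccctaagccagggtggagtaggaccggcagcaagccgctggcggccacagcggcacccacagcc

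Myh8 and Casq2 each held 2 E-boxes and 1 Mef2 motif in this window, Myog held 2 E-boxes and Chrna1 held 3, and no motif overlapped another. The stretch ctatatttat in Myog differs from the Mef2 pattern used here in its last letter and was not counted. Of the 36 members 29 had a promoter in the table, which leaves out Pax3, Myod1, Myf6, Actn3, Tnnt3, Tnni2 and Neb. At least 1 E-box was found in 23 of the 29 (79.3%) and in 72.1% of the promoters of 27025 genes, and at least 2 in 16 of the 29 (55.2%) against 39.6%. A Mef2 motif, searched on both strands, was found in 4 of the 29 (13.8%), Ttn, Casq2, Myh1 and Myh8, against 3.3% of all promoters. Myh3, Myh7, Tnnt2, Actn2, Des and Ryr1, which also passed as lower, had none in this window. A CArG box, the motif of serum response factor, was found in 2 of the 29 (6.9%), Acta1 and Actc1, against 1.6%. These matches are a description of the letters in the window, and a window without a match says nothing of the factor.

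The signal of an array had a median between 27.7 and 31.95 and a mean between 219 and 227. All arrays were scanned on 1 day, each in its own fluidics module, so no batch could be entered in a model. The brightest probe set of Ctnnb1 read 6302 and 5335 in controls and 6197 and 5773 in mutants, and whether it reads the removed exon is not known here. Poly-A RNA spiked into the samples was 2.23-fold higher in controls, and the amount added per sample is not known here. Changes are therefore relative to the overall brightness of each array and are given on the scale log2(signal + 7.71).

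In mutant skin 10 of the genes fell relative to the whole array (on the poly-A scale given at the end, 1 of the 10, Myh7, still passed), all of them from the contractile apparatus, its scaffold or its calcium stores, and none of the myogenic transcription factors passed on this scale. Of the 36 members 33 had a mean signal at or above 31.1, the median of all probe sets, and were tested with limma. Of these 33, 10 passed as lower, 1 passed as higher and 22 did not pass at an adjusted p of 0.05. Over all 11549 genes tested 8.74% passed, 3.78% as lower and 4.96% as higher. At an unadjusted p under 0.05 the count was 27 of 33. The median log2 fold change of the 33 was -1.10, and that of all genes tested was -0.02. In 25 of the 33 both mutants lay below both controls, as they did in 30.4% of all genes tested, and in 2, Actn3 and Mef2c, both lay above, as in 26.3% of all genes. Since these are bulk samples, fewer muscle cells and less muscle RNA per cell cannot be told apart.

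The amount of muscle RNA also differed between the samples of a group, and in the same way for nearly all members. With each gene set relative to its own mean over the 4 arrays, the median level of the 33 was 0.75 in control replicate 1, 0.36 in control replicate 2, -0.13 in mutant replicate 1 and -0.98 in mutant replicate 2 on the log2 scale. For all genes tested the same medians lay between -0.01 and 0.01. Control replicate 1 was thus the array richest in muscle transcripts and mutant replicate 2 the poorest. The signals of all 36 members summed to 22232 and 16468 in the controls and to 12327.5 and 7093 in the mutants. Control replicate 1 read above control replicate 2 in 31 of 33 genes, a share of 93.9% against 49.1% of all genes tested. Mutant replicate 1 read above mutant replicate 2 in 30 of 33, or 90.9% against 51.8%. The gap between the mutants, a median of 0.73 on the log2 scale, was wider than the gap of 0.49 between control replicate 2 and mutant replicate 1. The median log2 fold change of the members depended on this spread: it was -1.55 without mutant replicate 1 and -0.70 without mutant replicate 2. A fit without 1 array does not measure the spread of the group left with 1, so log2 fold changes are given for such fits.

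**Figure D1:**
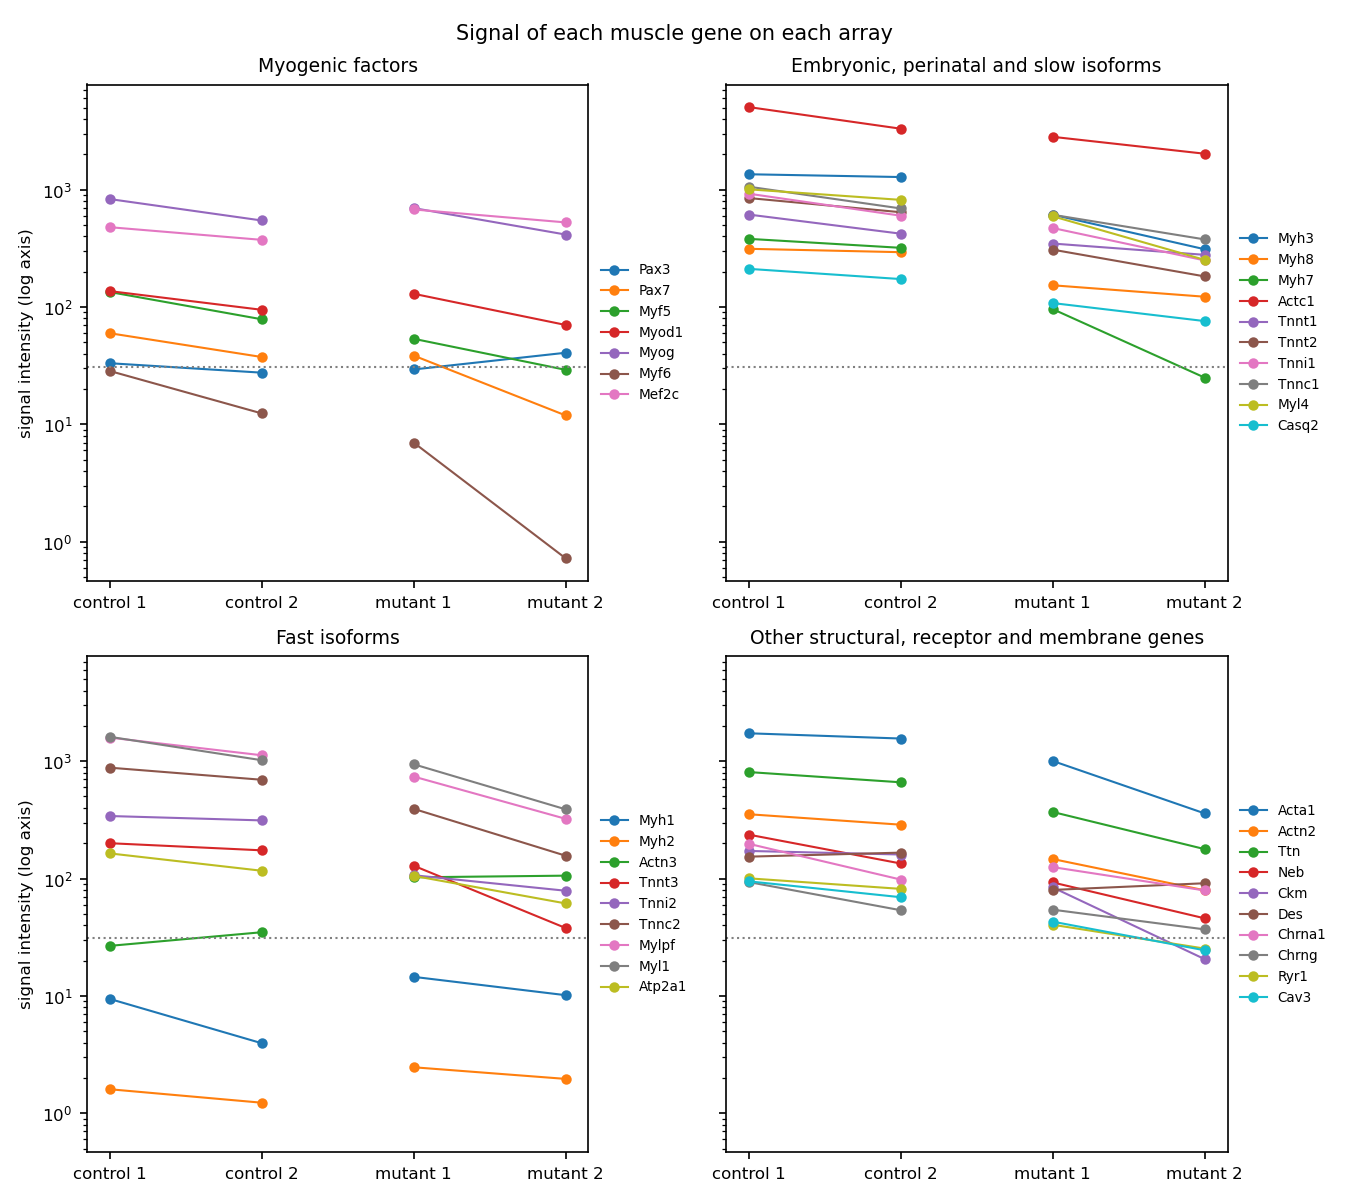
Signal intensity of the 36 muscle genes on each of the 4 arrays, 1 probe set per gene, on a log axis, with lines joining the 2 arrays of a group and a dotted line at 31.1, the mean signal from which a gene was tested. Most contractile genes read highest in control replicate 1 and lowest in mutant replicate 2, while Actn3 reads 102 and 106 in the mutants against 26.7 and 34.9 in the controls.

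None of the myogenic factors passed the test relative to the whole array, whereas on the scale of the poly-A spikes Pax3, Myod1, Myog and Mef2c passed as higher. On that scale 20130 of all 22519 probe sets tested passed as higher, and the median of all genes was 1.09. Of 7 measured, 6 were tested, with a median log2 fold change of -0.28 and a range from -1.22 to 0.49. Myog, which drives myoblasts into differentiation, read 832 and 546 in controls and 697 and 414 in mutants. Myod1, which commits cells to the muscle lineage, read 137 and 94.7 in controls and 130 and 70.3 in mutants. In both genes the groups overlapped, with 1 array of each group high and 1 low. Their log2 fold changes were -0.32 for Myog (SE 0.28, adjusted p = 0.551) and -0.23 for Myod1 (SE 0.30, adjusted p = 0.706). Neither fold is larger than the spread between the samples of a group, which was 0.60 and 0.74 for Myog.

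Myf5, the first of the family to be switched on in the embryo, lay closer to the contractile genes. It read 134 and 78.7 in controls and 53.6 and 29.2 in mutants, and its change of -1.22 on the log2 scale (SE 0.33) did not pass (adjusted p = 0.0815). Both mutants lay below both controls, and its log2 fold change ran from -1.59 to -0.85 when 1 array at a time was left out. Pax7, the factor of muscle progenitors and satellite cells, read 59.8 and 37.5 in controls and 38.6 and 11.9 in mutants, so that the groups overlapped (log2 fold change -0.88, SE 0.43, adjusted p = 0.287). Myf6, known from mature fibres, was dim on all arrays, at 28.5 and 12.4 in controls and 6.998 and 0.722 in mutants, and was not tested.

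Pax3 and Mef2c are also used by other cells of the skin. Pax3, also a factor of melanoblasts, read 33.2 and 27.6 in controls and 29.4 and 40.8 in mutants, with a change of 0.16 on the log2 scale (SE 0.24, adjusted p = 0.753). Its control mean lay under the filter. Mef2c, also found in endothelium and neural crest derivatives, read 479 and 374 in controls and 678 and 526 in mutants. Its groups did not overlap, with the mutants above, but its change of 0.49 on the log2 scale (SE 0.17) did not pass (adjusted p = 0.153). All 5 probe sets of Mef2c were tested, none passed, and their log2 fold changes ran from 0.16 to 0.49. Of 6 melanocyte markers tested 3 passed as higher and none as lower, and Sox10 had a log2 fold change of -0.74 (adjusted p = 0.0546). Further, of 5 endothelial markers 1 passed as higher, the receptor Tek with a log2 fold change of 1.07. The 7 melanocyte markers summed to 642 and 667 in controls and to 1135.5 and 1737 in mutants, and the 5 endothelial markers to 1625 and 1547 in controls and to 2100 and 2169 in mutants, with none listed at 0. The part of these cells in the values of Pax3 and Mef2c was not tested.

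Embryonic, perinatal and slow isoforms, the proteins of young fibres, read lower in both mutants throughout. In all 10 genes both mutants lay below both controls, control replicate 1 was the highest array and mutant replicate 2 the lowest. Over all genes tested these held in 30.4%, 23.9% and 26.8%. Of the 10, 5 passed as lower, against 3.78% of all genes tested, and 5 did not pass. The median log2 fold change of the 10 was -1.10, within a range from -2.61 to -0.70. Myh7, the slow and cardiac beta-myosin heavy chain, had the lowest log2 fold change of the 33 members. It read 381 and 320 in controls and 96.0 and 25.02 in mutants, a change of -2.61 on the log2 scale (SE 0.48, adjusted p = 0.0264), or 6.12-fold lower. It was -1.78 without mutant replicate 2 and -3.45 without mutant replicate 1, and the call ended without the filter (adjusted p = 0.0656), without the variance trend (0.0570) and with a robust trend (0.0894). Myh3, the embryonic myosin heavy chain, read 1353 and 1281 in controls and 612 and 311 in mutants (log2 fold change -1.58, SE 0.28, adjusted p = 0.0238). The controls of both genes lay close together and the mutants far apart. Myh8, the perinatal myosin heavy chain, read 313 and 293 in controls and 153 and 122 in mutants, a change of -1.10 on the log2 scale (SE 0.15, adjusted p = 0.00947) with little spread in either group.

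The thin filament and calcium genes of this class went the same way. Tnnt2, the troponin T of heart and embryonic skeletal muscle, read 848.5 and 642.5 in controls and 308 and 182 in mutants. Its log2 fold change was -1.61 (SE 0.25, adjusted p = 0.0149), and a further probe set of it gave -1.83 (adjusted p = 0.0124). Casq2, the calsequestrin of heart and slow fibres, read 212 and 173 in controls and 108 and 75.9 in mutants (log2 fold change -1.02, SE 0.20, adjusted p = 0.0344). The groups were apart in both genes, yet the call of Casq2 ended without control replicate 1, at an adjusted p of 0.0680, and without mutant replicate 2, at 0.113. Actc1, the actin of heart and young skeletal fibres, read 5056 and 3307 in controls and 2820 and 2024 in mutants, and its change of -0.77 on the log2 scale (SE 0.23) did not pass (adjusted p = 0.108). The slow troponins Tnnt1, Tnni1 and Tnnc1 and the embryonic light chain Myl4 did not pass either, with log2 fold changes from -1.21 for Myl4 to -0.70 for Tnnt1. Their adjusted p-values lay between 0.0949 and 0.132.

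Several of these isoforms are shared with the heart, and markers of heart muscle were read beside them. All 7, Myh6, Nppa, Nppb, Tnni3, Myl7, Nkx2-5 and Myl2, stayed under the filter, with signals from 0.867 to 29.3 over the 4 arrays, and none was listed at 0. Myh6 and Myl2 stand in the wider list of muscle genes as well, and Myl2 is also the light chain of slow skeletal fibres. Their signals summed to 82.5 and 76.7 in controls and to 78.2 and 76.3 in mutants, but single genes differed: Myh6 read 11.2 and 12.7 in controls and 3.54 and 3.97 in mutants, and Tnni3 read 3.71 and 3.97 in controls and 16.6 and 14.4 in mutants. A probe set shared by Myh7 and its cardiac neighbour Myh6, which is not counted among the 61, read 97.9 and 102 in controls and 13.1 and 9.38 in mutants.

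Among fast isoforms, which come to dominate adult muscle, 6 of the 7 tested had both mutants below both controls, and 1 had both above. Over all genes tested these shares were 30.4% and 26.3%. Of 9 measured, 7 were tested, 1 passed as lower, 1 as higher and 5 did not pass. Over all genes tested 3.78% passed as lower and 4.96% as higher. The median log2 fold change of the 7 was -1.30. Tnni2, the fast troponin I, read 341 and 313 in controls and 107 and 78.7 in mutants. Its log2 fold change of -1.75 (SE 0.17, adjusted p = 0.00279) had the lowest adjusted p of the 33 members, and the spread within each group was small beside it. Tnnc2, Mylpf, Tnnt3, Myl1 and Atp2a1, which encode the fast troponin C, the regulatory light chain, troponin T, a light chain and the calcium pump of fast fibres, had log2 fold changes from -1.62 to -0.72 and did not pass. Mylpf read 1588 and 1123 in controls and 740 and 323 in mutants (log2 fold change -1.43, SE 0.36, adjusted p = 0.0686). Both mutants lay below both controls in all 5 of these genes, and the mutants lay apart by 0.71 to 1.58 on the log2 scale.

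Actn3, the alpha-actinin of fast fibres, rose. It read 26.7 and 34.9 in controls and 102 and 106 in mutants, a change of 1.55 on the log2 scale (SE 0.20, adjusted p = 0.00730), or 2.92-fold higher. The 2 arrays of each group lay close together, and mutant replicate 2, the array poorest in the other muscle transcripts, had the highest signal. The control mean lay just under the filter, so the gene was tested through its mutant signal. Actn3 was read by 1 probe set, and its log2 fold change ran from 1.12 to 2.52 over the alternatives run for single genes. Without the filter its adjusted p was 0.0241. The adult fast myosins Myh1 and Myh2 were not tested, with signals of 3.95 to 14.53 and 1.23 to 2.47 over the 4 arrays in their brightest probe sets.

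Among the other structural, receptor and membrane genes 4 of 10 passed as lower and none as higher, against 3.78% and 4.96% of all genes. The median log2 fold change of the 10 was -1.32. Ttn, which encodes the giant spring protein titin, read 808 and 661 in controls and 369 and 178 in mutants (log2 fold change -1.48, SE 0.31, adjusted p = 0.0385). The 4 tested probe sets of Ttn all passed as lower, with log2 fold changes from -1.52 to -0.98. Actn2, the alpha-actinin of the Z-disc in all fibres and in heart, read 353 and 288 in controls and 147 and 79.3 in mutants (log2 fold change -1.49, SE 0.27, adjusted p = 0.0250). The alpha-actinins Actn2 and Actn3 thus passed in opposite directions on the same arrays. Ryr1, the calcium release channel, read 100 and 81.6 in controls and 40.4 and 25.3 in mutants (log2 fold change -1.30, SE 0.25, adjusted p = 0.0285). The call of Ttn ended without the filter (adjusted p = 0.0882), without the variance trend (0.0782) and with a robust trend (0.0775). That of Ryr1 ended without the filter (adjusted p = 0.0711). Without mutant replicate 2 the log2 fold changes were -0.97 for Ttn and -1.03 for Ryr1.

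Des, the intermediate filament desmin, was the one gene of the 10 that fell to read lower in control replicate 1 than in control replicate 2. It read 154 and 166 in controls and 80.0 and 91.2 in mutants (log2 fold change -0.85, SE 0.16, adjusted p = 0.0260). The call of Des ended without the filter (adjusted p = 0.0533), and its log2 fold change ran from -0.93 to -0.76 with 1 array at a time left out. Smooth muscle also makes desmin, and its markers did not fall: of 3 tested, Tagln and Actg2 passed as higher, with log2 fold changes of 2.07 and 1.06, and Acta2 did not pass (0.30, adjusted p = 0.298). The summed signal of 7 smooth muscle markers was 2238 and 1781 in controls and 3171 and 3026 in mutants, and their part in the value of Des was not tested.

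Acta1, Neb, Ckm and Cav3 had both mutants below both controls and did not pass. Acta1, the skeletal alpha-actin, read 1728 and 1559 in controls and 1004 and 359 in mutants (log2 fold change -1.44, SE 0.41, adjusted p = 0.0968). Ckm, the muscle creatine kinase, read 172 and 160 in controls and 84.0 and 20.6 in mutants (log2 fold change -1.77, SE 0.49, adjusted p = 0.0876). In both genes the mutants differed by more than the controls differed from the nearer mutant. The log2 fold changes of Acta1 and Ckm were -2.17 and -2.62 without mutant replicate 1. Without mutant replicate 2 they were -0.70 and -0.92. Neb, the thin filament protein nebulin, and Cav3, the caveolin of the muscle membrane, stood at -1.35 and -1.14 on the log2 scale, with adjusted p-values of 0.0788 and 0.0626.

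Chrna1 and Chrng encode subunits of the acetylcholine receptor, through which nerve drives muscle. Chrna1 read 198 and 98.0 in controls and 125 and 79.1 in mutants, and Chrng, the subunit of the foetal receptor, read 93.3 and 53.7 in controls and 54.3 and 36.9 in mutants. The groups overlapped in both genes, as in Myog and Myod1, but in Chrng control replicate 2 minus mutant replicate 1 was only -0.01 on the log2 scale. Their log2 fold changes of -0.46 (SE 0.34, adjusted p = 0.488) and -0.58 (SE 0.30, adjusted p = 0.302) did not pass.

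**Figure D2:**
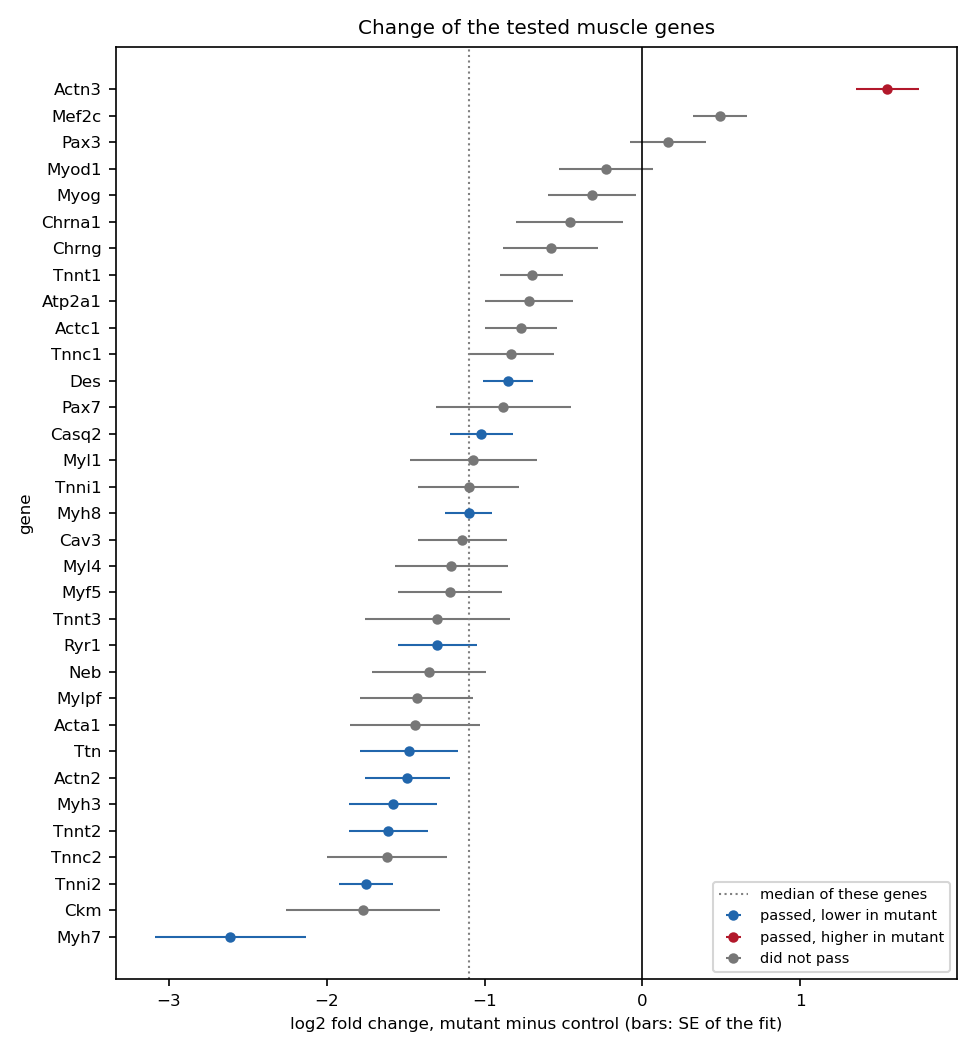
Log2 fold change of the 33 tested muscle genes, mutant minus control, with the SE of the limma fit as bars and a dotted line at their median of -1.10. Blue marks the 10 genes that passed as lower, red marks Actn3, which passed as higher, and grey marks the 22 that did not pass; the values run from -2.61 for Myh7 to 1.55 for Actn3.

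The members were also set against one another within each array. For this, the median of the 33 genes on an array was subtracted from each gene's log2 signal relative to its own mean. A gene with no change between the groups has a mutant minus control difference of 1.11 on this scale by construction, and a gene that follows the list has one near 0. No test was made. Actn3 differed most, with a difference of 2.66, followed by Mef2c with 1.60 and Pax3 with 1.27. Myod1 stood at -0.39 and -0.50 in controls and at 0.42 and 0.45 in mutants, a difference of 0.88. Myog stood at -0.29 and -0.50 in controls and at 0.34 and 0.45 in mutants, a difference of 0.79. For both genes the arrays of a group lay close together here, though their plain signals had overlapped. Chrna1 and Chrng differed by 0.66 and 0.53 in the same direction. The contractile and calcium pump genes Tnnt1 (0.42), Atp2a1 (0.39), Actc1 (0.34) and Tnnc1 (0.29) also had both mutants above both controls here. In the myogenic factors Myf5 (-0.11) and Pax7 (0.24) the groups overlapped. Of the 33 genes, 11 had both mutants above both controls on this scale and 10 had both below. At the other end Myh7 stood at 0.68 and 0.82 in controls and at -0.35 and -1.16 in mutants, a difference of -1.50. Ckm, Tnni2, Tnnc2, Tnnt2 and Myh3 followed with differences from -0.66 to -0.46. Cav3, Tnni1, Myh8 and Myl1 kept closest to the list, with differences from -0.03 to 0.04.

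**Figure D3:**
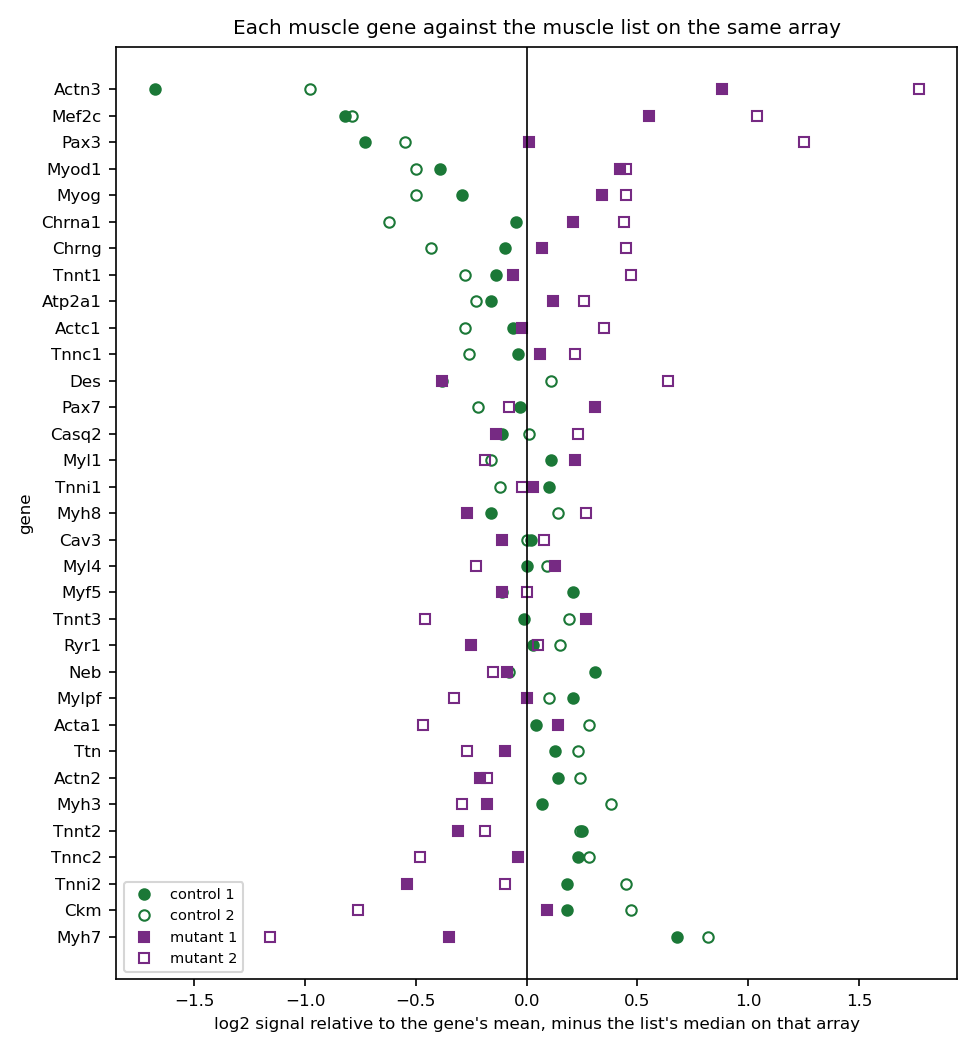
Level of each of the 33 tested muscle genes on each array, as log2 signal relative to the gene's mean over the 4 arrays minus the median of the 33 on that array. Circles are controls and squares are mutants, filled for replicate 1 and open for replicate 2. In Actn3, Mef2c, Pax3, Myod1 and Myog both mutants lie to the right of both controls, and in Myh7 to the left. A gene with no change between the groups has a mutant minus control difference of 1.11 here by construction.

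A wider list of muscle genes beyond the 36 was read in the same way. Of 74 such genes 70 were on the array and 45 were tested. Of the 45, 8 passed as lower, 2 as higher and 35 did not pass, against 3.78% lower and 4.96% higher over all genes. The median log2 fold change of the 45 was -0.48. Myom2 and Csrp3, an M-band protein and a Z-disc protein, passed at -1.93 and -1.78 on the log2 scale, with adjusted p-values of 0.0145 and 0.0286. Cox6a2, a muscle subunit of cytochrome oxidase, the slow light chain Myl3, the Z-disc protein Ldb3 and Itgb1bp2 passed with log2 fold changes from -1.32 to -1.25. The 2 that passed as higher were Fbxo32, a ubiquitin ligase of muscle wasting, at 1.01 (adjusted p = 0.0442), and Dmd, which encodes dystrophin, at 0.90 (adjusted p = 0.0438). Both are named here after their values were seen, and the control mean of Fbxo32, 19.1, lay under the filter. Mymk and Mymx, the proteins that fuse myoblasts, also chosen after their values were seen, had overlapping groups, Mymk at 133 and 55.9 in controls and 63.7 and 45.8 in mutants. Mymk stood at -0.61 and Mymx at -0.86 on the log2 scale, and neither passed (adjusted p = 0.388 and 0.354). Control replicate 1 exceeded control replicate 2 in 43 of these 45 genes and mutant replicate 1 exceeded mutant replicate 2 in 37, or 95.6% and 82.2%. Over all genes tested these shares were 49.1% and 51.8%.

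Within the groups some markers of other tissues moved with the muscle genes and others ran opposite to them. The summed signal of 5 tendon markers was 864 in control replicate 1 and 420 in control replicate 2, and 2725 and 2043 in mutant replicates 1 and 2. In each group the array with more muscle RNA thus also had more tendon RNA, while between the groups tendon went the other way, with Tnmd, Mkx and Tnc passing as higher. Mkx read 8.49 and 9.54 in controls, under the filter, and was tested through its mutant signal. Cartilage markers, 10 in all, summed to 227 and 188 in controls and to 10847 and 466 in mutants, so that mutant replicate 1 stood apart. Keratinocyte markers ran opposite to muscle within the groups: all 6 were lower in control replicate 1 than in control replicate 2, and lower in mutant replicate 1 than in mutant replicate 2. They summed to 9606 and 13461 in controls and to 5209 and 7220 in mutants, and Krt15 and Cdh1 passed as lower, with log2 fold changes of -2.67 and -1.54. Dermal fibroblast markers, 7 in all, summed to 32231 and 28277 in controls and to 26215 and 22596 in mutants. Of these 7, Dpt and Twist2 passed as lower, with log2 fold changes of -1.38 and -1.50. How the tissue was cut is not given per sample, and the part of tissue content in the muscle result was not tested. Mutant replicate 1, the array rich in cartilage, was also the mutant with more muscle RNA, with a member level of -0.13 against -0.98. The member median of -1.55 without it therefore says nothing of the part of tissue content.

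**Figure D4:**
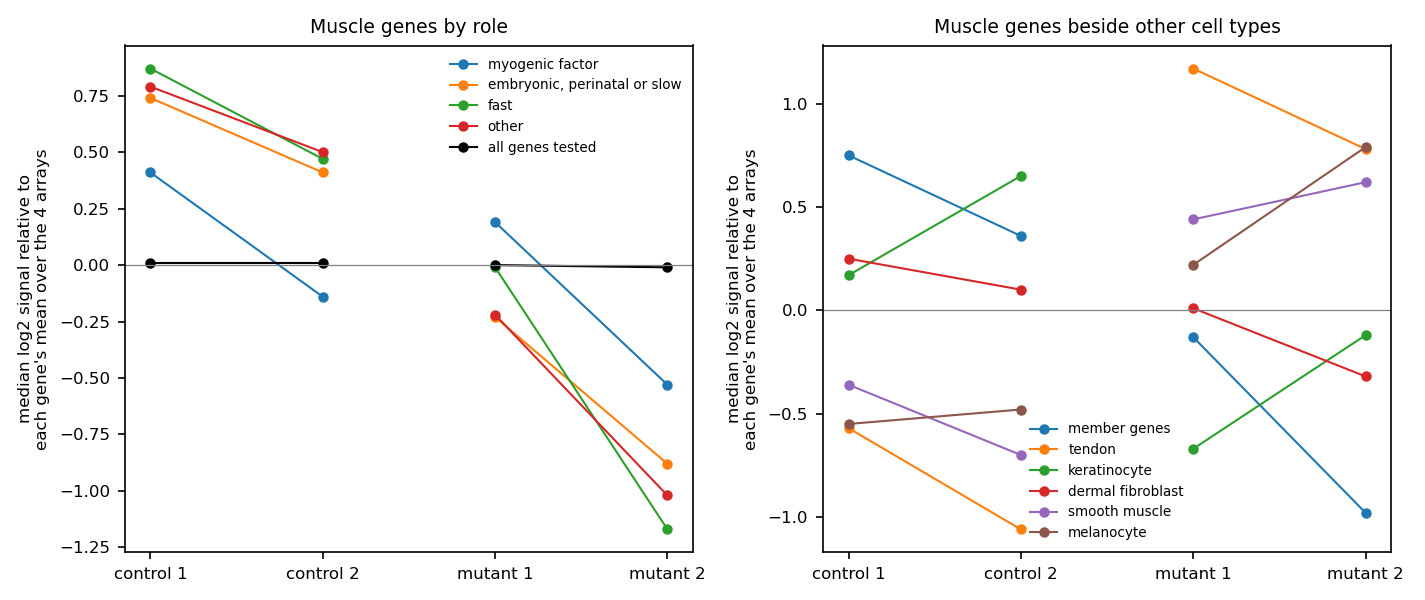
Median log2 signal of gene lists on each array, each gene relative to its own mean over the 4 arrays, with lines joining the 2 arrays of a group. At left the 4 classes of muscle genes and all genes tested, which stay between -0.01 and 0.01; at right the 33 muscle genes beside tendon, keratinocyte, dermal fibroblast, smooth muscle and melanocyte markers, where keratinocyte markers rise within each group as muscle genes fall.

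Probe sets of the same gene were compared where more than 1 was tested. This was so for 4 of the 33 genes, Mef2c, Tnnt2, Tnni2 and Ttn. Tnni2 was the gene whose tested probe sets differed in their call, the weaker one having a log2 fold change of -1.33 (adjusted p = 0.129). In all, 42 of the 61 probe sets were tested, of which 14 passed as lower, 1 as higher and 27 did not pass. Over all 22519 probe sets tested 7.03% passed, 2.93% as lower and 4.1% as higher. The others were too dim to be tested. None of the 61 is among the 170 probe sets of the authors' deposited table of changed genes, which lists changes of at least 2-fold.

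The falls are relative to the array and depend on its scale. Scaled to the poly-A spikes, the median of all genes tested moved to 1.09 and that of the members to 0.01, so that the members stayed 1.08 below the rest. On that scale 2 members, Myh7 and Ckm, passed as lower and 5 passed as higher: Actn3 (2.52), Mef2c (1.63), Pax3 (1.09), Myod1 (0.84) and Myog (0.82), the last 4 of them myogenic factors. Their adjusted p-values were 4.04e-14, 6.94e-05, 0.00144, 0.0110 and 0.0300. A gene at the median of all genes stood at 1.09 on that scale, and 20130 of all 22519 probe sets tested passed as higher. Without the filter on dim probe sets 3 members passed as lower, Myh8, Tnnt2 and Tnni2, and Actn3 as higher. Without the variance trend 5 passed as lower and 1 as higher.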

How the data were processed

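Total RNA of 4 skin samples, 2 per genotype, was read on 1-colour arrays with 45037 probe sets. The deposited signal intensity per probe set was made by the authors with MAS5 in GCOS, per the submitters' processing notes, with versions and the scaling target not given in the sources used here. The authors' deposited table of 170 probe sets holds fold change ratios of GCRMA values, per the file headers, and was used only to look for members. Probe-level data were not used here.

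Genes were named through the platform annotation: 34945 probe sets had 1 gene, 932 several and 9160 none. Each gene was read by its brightest probe set. Deposited signals were analysed as log2(signal + 7.71), the offset being percentile 25 of the signals, without further scaling. Probe sets with a mean signal under 31.1 were left out, and 22519 were tested with limma 3.58.1 in R 4.3.3 (lmFit, eBayes with a variance trend, Benjamini-Hochberg adjustment over all 22519); 1583 (7.03%) passed at 0.05. Fold changes compare mutant with control. An exact permutation test of 2 against 2 cannot go below 0.333, and none was used. The number of arrays limits the precision. P-values set the difference between the groups against the spread between these samples, with variances moderated over all tested probe sets. Code was tested on simulated data. Named further muscle genes are up to 6 called genes with the largest change, besides those said to be chosen after their values were seen. The members and gene lists were chosen with earlier results of these data known. Alternatives changed the offset, filter, normalization, scaling, variance model, probe set, replicate block and the arrays included.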

Additional observations from a re-analysis of the deposited data

How the results depend on the processing

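The main counts were 1583 probe sets and 11 muscle genes called, with a member median of -1.10. Without the filter 880 probe sets and 4 members passed; without the variance trend 6 members passed. With poly-A spike scaling 20278 of 22519 probe sets passed, 20130 of them as higher, and 7 members passed. The member median was 0.01 and that of all genes 1.09. On that scale 14 members changed sign: Pax7 0.05, Myod1 0.84, Myog 0.82, Myh8 0.01, Actc1 0.38, Tnnt1 0.44, Tnni1 0.04, Tnnc1 0.32, Myl1 0.07, Des 0.23, Casq2 0.07, Chrna1 0.63, Chrng 0.44 and Atp2a1 0.35. This follows from the 2.23-fold higher spikes in controls. Leaving out 1 array at a time gave 982 to 2171 probe sets, 8 to 22 members and medians from -1.55 to -0.70. The log2 fold change then ran from -0.64 to 0.18 for Myod1, -0.94 to 0.02 for Chrna1, -0.03 to 0.35 for Pax3 and -0.69 to 0.05 for Myog. For Ttn it ran from -1.99 to -0.97, for Casq2 from -1.25 to -0.78, for Ryr1 from -1.57 to -1.03 and for Des from -0.93 to -0.76. The calls of Ttn, Casq2, Ryr1 and Des ended without the filter. The calls of Myh3 and Myh7 ended without the filter, without the trend and with a robust trend, and that of Actn2 in the first 2; the cause was not tested. Tnni2, Tnnt2 and Myh8 kept their calls in every gene-level alternative run on all 4 arrays but spike scaling. With the replicate number as a replicate block 2443 probe sets and 27 members passed, Myf5 (adjusted p = 0.00713) and Mef2c (0.0364) among them. Deviations of same-numbered arrays from their group means correlated at 0.155. With 2 arrays per group this value is the same for both pairs by construction. The labels call the controls littermates without saying that a number marks a litter, so the pairing is not given. With 2 samples per group, values that overlap are not shown to be equal.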
